A study of Mus musculus with 8 samples.

Results

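Genes that are best known from other organs of the foregut were followed in mouse small-intestinal organoids: Afp and Ttr as liver genes, Rbp4 as a retinol carrier of liver, Ctrb1 as a gene of the exocrine pancreas and Nkx6-3 as a gene of the stomach. They are 5 of the 19338 genes that were measured, and each is represented by 1 probe whose gene name on the array matches. The genes were chosen by their log2 ratios on these same arrays, where some of them had been seen to move, so their values are given as a description with no test. Such organoids are cultured intestinal epithelium that keeps crypt-like buds.

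Afp encodes alpha-fetoprotein, a fetal plasma protein of the albumin family made by yolk sac and fetal liver. Rbp4 carries retinol in plasma and travels bound to Ttr, transthyretin, which also carries thyroid hormone. Ctrb1 encodes chymotrypsinogen B, a digestive protease precursor of pancreatic acinar cells, and Nkx6-3 encodes a homeodomain transcription factor that in mice is needed for the gastrin cells of the stomach. The factors manipulated in the study belong to the crypt stem cell programme: Ascl2 is a basic helix-loop-helix factor of crypt stem cells and Tcf7l2 binds DNA and recruits beta-catenin to Wnt targets.

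The study used 8 arrays with 2 colours, each of which compared the RNA of a modified culture (its own RNA) with that of a control culture, and all cultures, controls included, were pulsed for 16 h with 4OH-tamoxifen. The Ascl2 null organoids of experiment 3 were set against VillinCreERT2 organoids, which carry a tamoxifen-inducible Cre driven by the villin promoter. In experiment 2 the Tcf7l2 null organoids, the Tcf7l2 null organoids that also overexpressed Ascl2 (Tcf7l2 null/Ascl2 OE) and the organoids that overexpressed Ascl2 alone (Ascl2 OE) were set against organoids transduced with dsGFP, in which tamoxifen induced GFP. In experiment 1 Ascl2-transduced organoids, in which a CMV-driven Ascl2 was induced and RNA was taken after 24 h, were set against VillinCreERT2 organoids on 2 arrays with the dyes swapped on replicate 2. On 2 self-self arrays, 1 of the dsGFP control and 1 of the experiment 3 control, the same RNA carried both dyes; the genotype field names the experiment 3 control VillinCreERT2, while its description names Ascl2loxp/loxp organoids. Each condition other than the Ascl2 OE of experiment 1 has 1 array and no replicate, and nothing states that the replicates of experiment 1 were separate cultures. Each experiment had a slide of its own, so slide and experiment cannot be told apart. In bulk RNA of this kind, fewer cells of a type and less RNA per cell cannot be told apart.

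The targeted genes were examined first. The Ascl2 probe (mm9 chr7:150154439-150154498) had a log2 ratio of own RNA over control of -1.07 on the Ascl2 null array, -0.57 on the Tcf7l2 null array, -0.92 on the Tcf7l2 null/Ascl2 OE array, -0.68 on the Ascl2 OE array of experiment 2, and -0.31 and 0.13 on the Ascl2 OE arrays of experiment 1. It was thus not clearly raised where the labels give Ascl2 overexpression, and it was below 0 on all 3 arrays of experiment 2 with own RNA. No source used here states whether the transgene contains the probed sequence, and these arrays are therefore called by their labels throughout. The 3 Tcf7l2 probes had -0.35, -0.10 and -0.19 on the Tcf7l2 null array and 0.18, -0.14 and -0.21 on the Tcf7l2 null/Ascl2 OE array; their place relative to the deleted part is not stated either, so they check nothing. All 14 small intestinal epithelium markers were well above background in both channels of all 8 arrays. On the Ascl2 null array 3 of them were at least 2-fold higher and 2 lower, beside 3.91% of all genes in either direction. The Tcf7l2 null/Ascl2 OE array had 1 higher and 3 lower (3.41% of all genes), and the Ascl2 OE array of experiment 2 had 4 lower (2.0%). The Tcf7l2 null array had 1 lower of 13 with a value (0.952%). In experiment 1, replicate 1 had 2 higher and 1 lower (0.766%) and replicate 2 had 1 lower (1.06%), and the self-self arrays had none. Named after their values were seen, the stem cell marker Olfm4 had -3.24 and the enterocyte marker Alpi 2.39 on the Ascl2 null array. Other markers of these cells were mixed there: Lgr5 had -0.63, and the enterocyte genes Fabp2, Sis and Lct had 1.34, -0.61 and -0.58. On the self-self array of experiment 3 (Cy5 over Cy3) Olfm4 had -0.98, close to 2-fold, and Alpi 0.38. Olfm4, the Paneth cell marker Lyz1 and the stem cell marker Lgr5 had -5.10, -2.07 and -2.02 on Tcf7l2 null/Ascl2 OE, and -1.97, -1.84 and -1.72 on Ascl2 OE of experiment 2. Their part in the values of the 5 genes was not tested. Of 11 mesenchyme and immune markers, 9 were kept and between 4 and 9 of these were well above background in own RNA, and none was at or beyond 2-fold on any array.

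The regulatory sequence in front of 3 of the genes is shown because Afp and Rbp4 mostly moved alike while Ctrb1 took a different course. The log2 ratios of Afp and Rbp4 had the same sign on every array with own RNA except Tcf7l2 null (-0.76 and 0.65). These are the 250 bases before the annotated start, from RefSeq's GRCm38.p6 table, 5′ to 3′ on the gene's strand, for Afp at chr5:90490464-90490713 on the plus strand, Rbp4 at chr19:38125322-38125571 on the minus strand and Ctrb1 at chr8:111691011-111691260 on the minus strand. Capitals mark matches on either strand to the E-box CAGCTG, to the TCF/LEF motif CTTTGAA or CTTTGAT, or to the HNF1 half-site GTTAAC or GTTAAT.
Afp: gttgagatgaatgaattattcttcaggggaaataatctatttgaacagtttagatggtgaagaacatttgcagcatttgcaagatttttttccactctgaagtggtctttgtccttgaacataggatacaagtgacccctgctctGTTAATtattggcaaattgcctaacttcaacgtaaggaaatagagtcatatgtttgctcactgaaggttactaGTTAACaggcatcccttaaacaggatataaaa
Rbp4: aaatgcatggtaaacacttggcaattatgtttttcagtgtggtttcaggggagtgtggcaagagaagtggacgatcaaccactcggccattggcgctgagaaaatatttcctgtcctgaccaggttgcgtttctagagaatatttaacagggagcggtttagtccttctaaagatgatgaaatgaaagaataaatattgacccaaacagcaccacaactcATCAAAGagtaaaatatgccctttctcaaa
Ctrb1: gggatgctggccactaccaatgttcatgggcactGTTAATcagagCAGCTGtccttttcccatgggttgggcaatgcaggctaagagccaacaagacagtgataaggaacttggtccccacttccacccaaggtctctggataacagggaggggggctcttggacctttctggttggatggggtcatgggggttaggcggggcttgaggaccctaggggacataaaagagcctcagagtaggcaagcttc

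The Afp sequence held 2 HNF1 half-sites and neither of the other motifs. The Rbp4 sequence held 1 TCF/LEF match, ATCAAAG on the printed strand, and no HNF1 half-site. Ctrb1 held 1 CAGCTG and 1 HNF1 half-site. Of 32851 such promoter sequences, 13.0% held CAGCTG, 7.48% a TCF/LEF match and 8.75% an HNF1 half-site. The looser E-box CANNTG, of which CAGCTG is a case and which was not capitalised otherwise, had 4 matches in Afp, 1 in Rbp4 and 1 in Ctrb1, and 66.2% of all the promoters held it. These are matches of letters and not measured sites.

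Afp differed most between the cultures. Its own and control intensities, as median spot signals averaged over 10 spots, were 4294 and 145 on the Ascl2 null array. They were 28440 and 5580 on the Tcf7l2 null/Ascl2 OE array, and 24729 and 9319 on the Ascl2 OE array of experiment 2. Own RNA was the brighter channel on these 3 arrays. The Tcf7l2 null array had 7658 in own RNA and 9471 in control RNA. Replicates 1 and 2 of experiment 1 had 7755 and 2936 in Ascl2 OE RNA, against 9468 and 18956 in VillinCreERT2 RNA. The dyes were swapped between these 2 arrays and the dyes differ in scale, so the ratios below are taken after loess normalisation.

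After normalisation the log2 ratio of Afp was 4.86 on the Ascl2 null array, a 29.1-fold higher signal, which ranked 9 from the top of 19308 genes. With a normexp offset of 10 it was 5.26, and with the scanner's own ratio 5.61. It was 1.96 on the Tcf7l2 null/Ascl2 OE array and 1.06 on the Ascl2 OE array of experiment 2, 3.89-fold and 2.09-fold higher. Tcf7l2 null organoids had -0.76. In experiment 1 the ratio was -1.63 and -1.85, with a mean of -1.74 ± 0.16 (SD, n = 2), ranks 11 and 8 from the bottom. The self-self arrays gave 0.01 and -0.22. Spots of the same array varied by an SD between 0.02 and 0.17. Afp was therefore higher on 3 arrays, lower on both arrays of experiment 1, and of opposite sign on the arrays labelled Ascl2 OE in the 2 experiments.

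**Figure D1:**
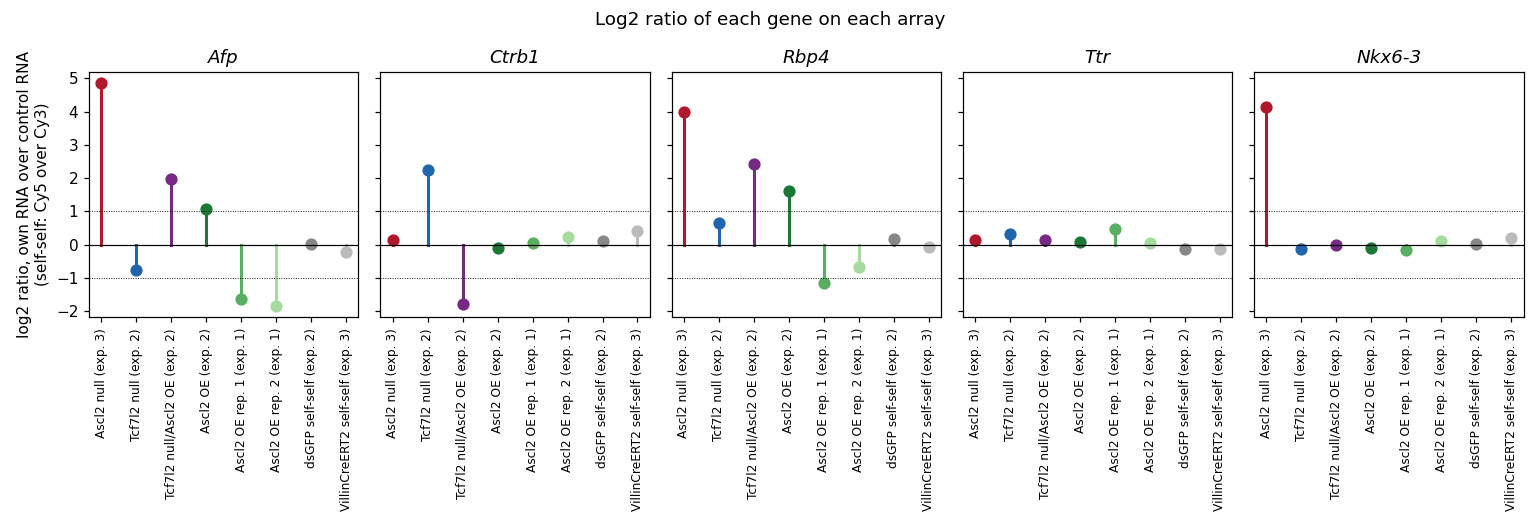
Log2 ratio of own RNA over control RNA (vertical axis) for each gene on each array; the 2 grey points in each panel are self-self arrays (Cy5 over Cy3), and dotted lines mark 2-fold. Afp and Rbp4 stand highest on the Ascl2 null array (4.86 and 4.00) and below 0 on both arrays of experiment 1, Nkx6-3 stands out only on the Ascl2 null array (4.13), Ctrb1 stands out on the Tcf7l2 null (2.25) and Tcf7l2 null/Ascl2 OE (-1.78) arrays, and Ttr stays between 0.06 and 0.46 on arrays with own RNA.

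Rbp4 was a dimmer gene with a like pattern except on the Tcf7l2 null array. Own and control intensities were 2900 and 193 on the Ascl2 null array. They were 674.5 and 125 on the Tcf7l2 null/Ascl2 OE array, and 484 and 144.5 on the Ascl2 OE array of experiment 2. The Tcf7l2 null array had 280 in own RNA and 141 in control RNA. Experiment 1 had 440.5 and 235 in Ascl2 OE RNA, against 416.5 and 650 in VillinCreERT2 RNA. Both channels were well above background on all 8 arrays, and own RNA was more than 10 times brighter than control RNA on the Ascl2 null array only.

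The log2 ratio of Rbp4 was 4.00 on the Ascl2 null array, or 16.0-fold, rank 18 from the top. It was 2.42 on the Tcf7l2 null/Ascl2 OE array, 1.61 on the Ascl2 OE array of experiment 2 and 0.65 on the Tcf7l2 null array. In experiment 1 it was -1.14 and -0.66, with a mean of -0.90 ± 0.34 (SD, n = 2). The self-self arrays gave 0.18 and -0.08. The scanner's own ratios were 3.44 on the Tcf7l2 null/Ascl2 OE array and 2.53 on the Ascl2 OE array of experiment 2. The second of the experiment 1 values rests on how 56 spots with very high local background were treated: with these kept as deposited it was -0.03. On the Tcf7l2 null array the scanner's own ratio was 1.17 in place of 0.65, past 2-fold.

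The partner of Rbp4 in plasma, Ttr, could barely be measured. It was well above background in 3 of 16 channels, all of them own RNA: Ascl2 OE replicate 1 of experiment 1 with 196.5, Tcf7l2 null with 119 and Ascl2 OE of experiment 2 with 116.5, against control signals of 73, 80 and 92.5 that were not well above background. Own RNA was therefore set against the control signal or the lowest detectable control signal, whichever was higher. This gave 1.25-fold for Tcf7l2 null and 1.06-fold for Ascl2 OE of experiment 2. In experiment 1 it gave 1.20-fold over both replicates, of which 1 measured the gene. Neither channel was well above background on the Tcf7l2 null/Ascl2 OE and Ascl2 null arrays. The log2 ratios lay between 0.06 and 0.46, against -0.13 and -0.14 on the self-self arrays, so nothing is shown for Ttr beyond a signal near background. The fold values above come from mean normalised signals, and the lowest detectable signal is the lowest among probes well above background in that channel. They are equal or close to the plain ratios to a control not well above background, so they set no firm lower limit. They are also open to dye bias on arrays without a swap.

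Nkx6-3 stood out on 1 array. Its intensity was 1402 in Ascl2 null RNA, against 66 in the control RNA of that array, and both were well above background. The log2 ratio was 4.13, or 17.6-fold, rank 15 from the top. The log2 ratio was 4.99 with a normexp offset of 10 and 5.79 with the scanner's own ratio. The control signal was close to its local background of 31.5, so the size of the ratio is uncertain. Neither channel was well above background in the 3 modified cultures of experiment 2 (Tcf7l2 null, Tcf7l2 null/Ascl2 OE and Ascl2 OE), with own intensities of 102.5, 109.5 and 109. In experiment 1 the intensities were 134 and 85 in Ascl2 OE RNA, against 86.5 and 127 in VillinCreERT2 RNA, with ratios of -0.16 and 0.11. The self-self arrays gave 0.01 and 0.20. Its relative Nkx6-1, a factor of pancreatic beta cells, had 0.15 on the Ascl2 null array and stayed between -0.02 and 0.17 on the other arrays with own RNA.

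**Figure D2:**
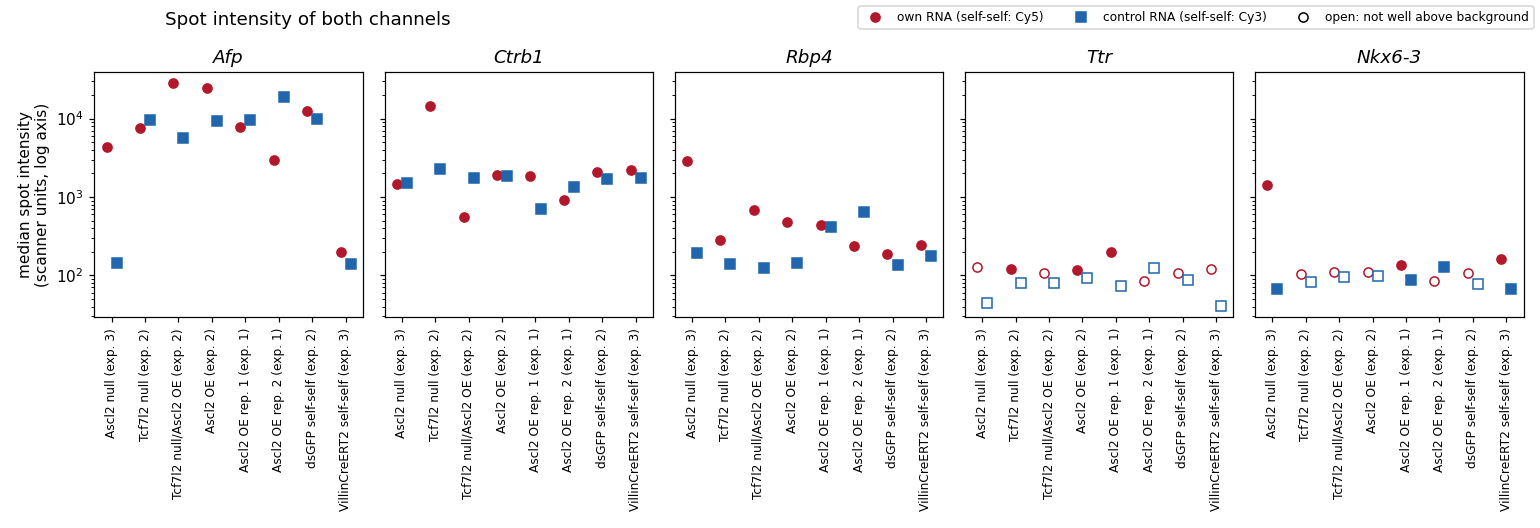
Median spot intensity (logarithmic vertical axis, scanner units, not normalised) of own RNA (red circles) and control RNA (blue squares) for each gene on each array; on self-self arrays the circle is Cy5 and the square Cy3, and open symbols were not well above background. The Afp control signal is 145 on the Ascl2 null array but 5580 to 18956 in experiments 2 and 1, Ttr is near background throughout, and Nkx6-3 is bright only in Ascl2 null RNA (1402).

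Ctrb1 took a different course. The 60-base probe, mm9 chr8:114212498-114212557 on the minus strand, is shown because it decides which chymotrypsinogen transcript was read; it has no part in capitals.
Ctrb1 probe: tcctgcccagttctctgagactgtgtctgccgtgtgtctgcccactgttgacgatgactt

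Ctrb1 had intensities of 14678 in Tcf7l2 null RNA, against 2287 in dsGFP control RNA on the same array. The order was reversed on the Tcf7l2 null/Ascl2 OE array, with 556 and 1738. The Ascl2 OE array of experiment 2 had 1921 and 1827, and the Ascl2 null array 1468 and 1522. Experiment 1 had 1851 and 913 in Ascl2 OE RNA, against 704 and 1333 in VillinCreERT2 RNA. Own RNA was thus brighter than control RNA in Tcf7l2 null organoids and dimmer than it in those labelled Tcf7l2 null/Ascl2 OE.

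The log2 ratio of Ctrb1 was 2.25 on the Tcf7l2 null array, 4.76-fold, rank 3 from the top of 19321 genes. It was -1.78 on the Tcf7l2 null/Ascl2 OE array, 3.44-fold lower, rank 54 from the bottom. On the Ascl2 OE array of experiment 2 it was -0.11, on the Ascl2 null array 0.13, and in experiment 1 it was 0.05 and 0.24 with a mean of 0.14 ± 0.14 (SD, n = 2). The self-self arrays gave 0.10 and 0.42, so these last 4 values were no larger than the technical spread. Its relatives had smaller ratios. Ctrl, Ctrc, Cela1 and Cela3b encode another chymotrypsin, chymotrypsin C and 2 elastases. They lay between -0.22 and -0.04 on the Tcf7l2 null array and between -0.21 and 0.52 on the Tcf7l2 null/Ascl2 OE array. On the Tcf7l2 null array 19 of 26 kept exocrine genes were well above background in own RNA and 20 in control RNA. The signals of these relatives are not given here, and small ratios of dim genes do not show that they were unchanged.

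Counted at 2-fold, 3 of the 5 genes (Afp, Rbp4, Nkx6-3) were higher on the Ascl2 null array, where 2.26% of all genes were. Ctrb1 was higher on the Tcf7l2 null array, as were 0.414% of all genes. The Tcf7l2 null/Ascl2 OE array had Afp and Rbp4 higher, beside 1.25% of all genes, and Ctrb1 lower, beside 2.16%. Afp and Rbp4 were also higher on the Ascl2 OE array of experiment 2, beside 1.05% of all genes. In experiment 1, Afp and Rbp4 were lower on replicate 1, beside 0.46% of all genes, and Afp alone on replicate 2, beside 0.571%. No member passed 2-fold on a self-self array, where 0.0208% (dsGFP) and 0.145% (VillinCreERT2) of all genes did in either direction. The rule of choice used these same arrays, so nothing is read from the shares; in all, 12 of 30 values were at or beyond 2-fold.

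The 3 conditions of experiment 2 share dye and control, so their arrays were set against each other directly, with 1 array each and no test. Between Tcf7l2 null/Ascl2 OE and Tcf7l2 null, Ctrb1 differed by -4.03 on the log2 scale, a 16.4-fold lower signal that ranked 3 from the bottom of 19288 genes. In this comparison 4.79% of all genes were at least 2-fold lower. Afp differed by 2.73 and Rbp4 by 1.77 in the other direction, where 2.88% of all genes were at least 2-fold higher. Between Tcf7l2 null/Ascl2 OE and Ascl2 OE, Ctrb1 differed by -1.68, Afp by 0.90 and Rbp4 by 0.82. There 1.43% of all genes were at least 2-fold lower and 0.545% higher. Between Ascl2 OE and Tcf7l2 null, Afp differed by 1.83 and Rbp4 by 0.95, beside 0.871% of genes at least 2-fold higher, and Ctrb1 by -2.36, beside 0.933% lower. Ttr and Nkx6-3 differed by at most 0.24 in size.

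The same label did not mean the same level in the controls. The level used here is the log2 normexp signal less the median of all kept genes in that channel, so a level of 0 is a typical gene. Afp had a mean level of -0.83 in the Cy3 control RNA of experiment 3 (2 arrays), 4.98 in that of experiment 2 (4 arrays) and 4.95 in that of experiment 1 (1 array). The intensities behind these were 138 to 145, 5580 to 9839, and 9468. The difference of experiment 3 from experiment 2 was -5.80, the lowest of all 19338 genes, and from experiment 1 it was -5.78, rank 3 from the bottom of 19330, although experiments 1 and 3 both name VillinCreERT2 controls. The own RNA level of Afp in Ascl2 null organoids, 3.96, was below its level in the dsGFP controls. The ratio of 4.86 therefore rests on a control with little Afp signal, and which of the controls is typical was not tested.

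**Figure D3:**
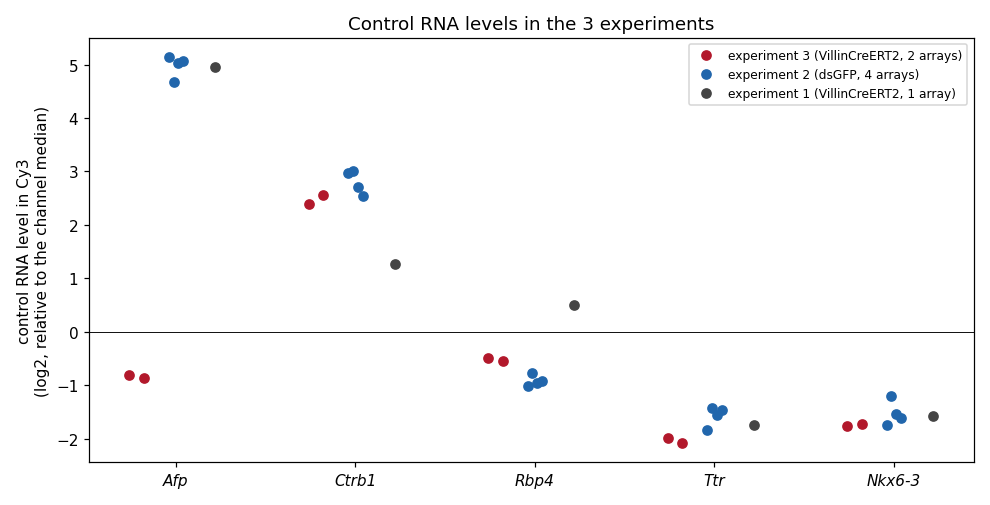
Level of each gene in control RNA labelled with Cy3 (vertical axis, log2 relative to the channel's median), 1 point per array, in experiment 3 (red), experiment 2 (blue) and experiment 1 (grey). Afp is near -0.83 in experiment 3 and near 5 in experiments 2 and 1, while Ctrb1 is lower in experiment 1 and Rbp4 higher there.

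The other genes differed less between controls. Ctrb1 had control levels of 2.47, 2.81 and 1.26 in experiments 3, 2 and 1. Rbp4 had -0.51, -0.92 and 0.51. The Rbp4 control of experiment 1 was therefore the highest of the 3, and its own RNA level there was -0.66 on replicate 1, against 0.66 on the Ascl2 OE array of experiment 2, both in Cy5. For Afp the control levels of experiments 2 and 1 were alike and the Cy5 own RNA levels were 6.29 and 3.47. The opposite signs of Afp in these experiments thus lay in own RNA, and those of Rbp4 in both own and control RNA. Control genotype, slide and experiment cannot be told apart here.

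Ranked by the Cy5 level, Afp stood at 7.13 in Tcf7l2 null/Ascl2 OE organoids, 6.29 in Ascl2 OE of experiment 2, 5.43 in the dsGFP control, 4.53 in Tcf7l2 null, 3.96 in Ascl2 null, 3.47 in Ascl2 OE of experiment 1 and -1.03 in the experiment 3 control. The same dsGFP RNA had Cy3 levels of Afp between 4.67 and 5.14 on 4 arrays. Neighbours as close as Ascl2 null and Ascl2 OE of experiment 1 can therefore not be ordered, and the spread between cultures was not measured. Rbp4 ran from 3.41 in Ascl2 null and 1.68 in Tcf7l2 null/Ascl2 OE through 0.66 in Ascl2 OE of experiment 2 to -0.52 in Tcf7l2 null, -0.60 in the experiment 3 control, -0.66 in Ascl2 OE of experiment 1 and -0.87 in the dsGFP control. Its dsGFP Cy3 levels lay between -1.02 and -0.78, and the last 4 groups in its order can likewise not be ordered. The Cy3 levels of Ctrb1 in dsGFP RNA lay between 2.54 and 3.01. Ctrb1 was at 5.35 in Tcf7l2 null, between 2.40 and 2.89 in Ascl2 null, Ascl2 OE of experiment 2 and both controls, and at 1.43 and 1.41 in Ascl2 OE of experiment 1 and Tcf7l2 null/Ascl2 OE.

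The genes nearest to each member were found by the root mean square difference of log2 ratios over the 6 arrays with own RNA, among 19135 genes. Nearest to Afp were Fam234a at 0.39, Tmem37 at 0.42 and Psmb8, an immunoproteasome subunit, at 0.54. Rbp4 followed as the 4th nearest gene to Afp at 0.91, and Nkx6-3 ranked 41 at 1.42. Nearest to Rbp4 were C1qtnf12, which encodes a secreted adipokine, at 0.53, Psmb8 at 0.54 and the calcium channel subunit Orai3 at 0.56. Afp ranked 20 from Rbp4. Ctrb1 was nearest to H1f5 at 0.42, Lmnb1 at 0.58 and Pclaf at 0.59, which encode a linker histone, a nuclear lamin and a PCNA-binding factor. On the Tcf7l2 null array H1f5 had 1.62, Lmnb1 1.24 and Pclaf 0.89, and on the Tcf7l2 null/Ascl2 OE array they had -1.35, -1.26 and -1.65. Nkx6-3 was nearest to Myl9 at 0.32, Zfp503 at 0.36 and Sp5, a Wnt target, at 0.41, with 3.58, 3.29 and 3.97 on the Ascl2 null array. Ttr, near background, was nearest to Gps2, G6pd2 and Washc5 at 0.06 to 0.07. The arrays of experiment 2 share a control, and these distances carry no test.

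In the albumin family, Alb, the main plasma protein of adult liver, had 1.58 on the Tcf7l2 null/Ascl2 OE array and 0.76 on the Ascl2 OE array of experiment 2, against 0.18 on the Ascl2 null array. Experiment 1 gave -0.49 and -0.68 for Alb. Afm, afamin, had 0.90, 0.21 and 0.28 on the same first 3 arrays and -0.48 and -0.65 in experiment 1. Gc, the vitamin D binding protein, lay between -0.09 and 0.15 on the arrays with own RNA. The 29.1-fold higher Afp of the Ascl2 null array was thus not shared by the 3 measured relatives, the highest of which had 0.28.

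Among the partners of Rbp4 and Ttr in retinoid handling, the cellular retinol carriers Rbp7 and Rbp2 had 2.03 and 1.45 on the Ascl2 null array. They had 1.51 and 1.07 on the Tcf7l2 null/Ascl2 OE array, and in experiment 1 both were below 0 on both replicates, Rbp2 at -0.76 and -0.97. Stra6, the retinol uptake receptor that binds Rbp4, stayed between -0.18 and 0.66. Stra6l, which encodes a second Rbp4 receptor, was -1.80 on the Ascl2 null array. Of the 33 measured retinoid genes other than Rbp4 and Ttr, 6 were at least 2-fold higher and 1 lower on the Ascl2 null array, beside 2.26% of all genes higher and 3.91% in either direction, with a median of 0.27 against 0.01 over all genes. Adh1, an alcohol dehydrogenase that oxidises retinol, had 2.17 there and Rdh7, a retinol dehydrogenase, 1.71. Bco2, Adh4 and Rdh7 were lower on the Tcf7l2 null array, at -1.48, -1.21 and -1.02, beside 0.952% of all genes in either direction. Bco2 was not lower there alone: it had -1.49 on the Ascl2 OE array of experiment 2, and -0.86 and -0.94 in experiment 1. Rbp7 was higher on that experiment 2 array at 1.20, where 2.0% of all genes passed 2-fold in either direction.

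Other genes of pancreas were counted beside Ctrb1. Of 25 measured exocrine genes 1, Pnliprp1 at 1.03, was at least 2-fold higher on the Tcf7l2 null array (0.414% of all genes). None was lower, and the median was -0.04. Bhlha15, a transcription factor of acinar and other secretory cells also called Mist1, was lower at -1.86 on the Tcf7l2 null/Ascl2 OE array. Bhlha15 was also lower on the Ascl2 OE array of experiment 2 at -1.67 and on the Ascl2 null array at -1.27, but had 0.54 and 0.48 in experiment 1. Rnase1 was lower on the Ascl2 OE array of experiment 2 at -1.11 and on the Ascl2 null array at -1.26, where Sycn was higher at 1.24. In either direction 3.91% of all genes passed 2-fold on Ascl2 null, 3.41% on Tcf7l2 null/Ascl2 OE and 2.0% on Ascl2 OE of experiment 2. Klk1, a kallikrein, was the exocrine gene at or beyond 2-fold in experiment 1, at 1.16 and 1.27 (0.766% and 1.06% of all genes). Of 8 islet genes, Pdx1, a factor of pancreas and proximal intestine, was 4.94-fold higher on the Ascl2 null array. It was 2.85-fold higher on the Tcf7l2 null/Ascl2 OE array and 3.25-fold higher on the Ascl2 OE array of experiment 2. These are ratios to control signals that were not well above background.

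Of 23 stomach genes other than Nkx6-3, Ghrl, the hormone ghrelin, was higher on all 4 arrays of experiments 2 and 3 with own RNA: 2.78 on Ascl2 null, 1.38 on Tcf7l2 null, 1.75 on Tcf7l2 null/Ascl2 OE and 1.03 on Ascl2 OE. The remaining gastric genes past 2-fold were Onecut2 and Anxa10 on the higher side and Gkn3, at -1.18 on the Tcf7l2 null/Ascl2 OE array, on the lower. Anxa10 had 2.50 on the Ascl2 OE array of experiment 2. Of all genes, 2.26% were at least 2-fold higher on Ascl2 null and 0.414% on Tcf7l2 null. The shares were 1.25% on Tcf7l2 null/Ascl2 OE and 1.05% on Ascl2 OE of experiment 2. Of 27 liver plasma protein genes, Mbl2, Ambp and C3 were higher on the Ascl2 null array at 2.10, 1.61 and 1.07 (2.26% of all genes higher). They encode mannose-binding lectin, the alpha-1-microglobulin precursor and complement C3. Serpina1d, an antiprotease gene with near-identical copies, was lower there at -1.12 (3.91% of all genes in either direction). Mbl2 was lower at -1.23 on the Tcf7l2 null array and at -1.01 on the Ascl2 OE array of experiment 2, and higher at 1.20 on the Tcf7l2 null/Ascl2 OE array. Of 28 foregut and liver transcription factors, 5 were higher on the Ascl2 null array (2.26% of all genes higher, 3.91% in either direction), Onecut1 and Onecut2 at 1.42 and 1.55 among them, while Foxa2 and Cdx2, the intestinal homeobox factor, were lower at -1.87 and -1.43. On the Tcf7l2 null/Ascl2 OE array Sox9, a crypt and progenitor factor, was lower at -1.80.

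Over all 6 organ lists without the 5 members, 22 of 138 genes were at or beyond 2-fold on the Ascl2 null array (15.9%, against 3.91% of all genes). The shares were 5.04% on Tcf7l2 null (0.952% of all genes), 7.19% on Tcf7l2 null/Ascl2 OE (3.41%), 7.91% on Ascl2 OE of experiment 2 (2.0%), and 2.88% and 2.9% in experiment 1 (0.766% and 1.06%). The lists were chosen with earlier results of these data known, and nothing particular to them is read from these shares. Their medians on these arrays lay between -0.05 and 0.16. Most list genes thus lay within 2-fold of their control on every array, but many were dim. In Tcf7l2 null RNA 4 of 8 kept islet and 16 of 24 stomach genes were well above background. So were 20 of 30 liver plasma protein and 19 of 26 exocrine genes, members included. In Ascl2 null RNA these counts were 6, 21, 27 and 24. A ratio near 0 of a dim gene does not show that the gene was unchanged. With the scanner's own ratio 41 list genes passed 2-fold on the Ascl2 null array.

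**Figure D4:**
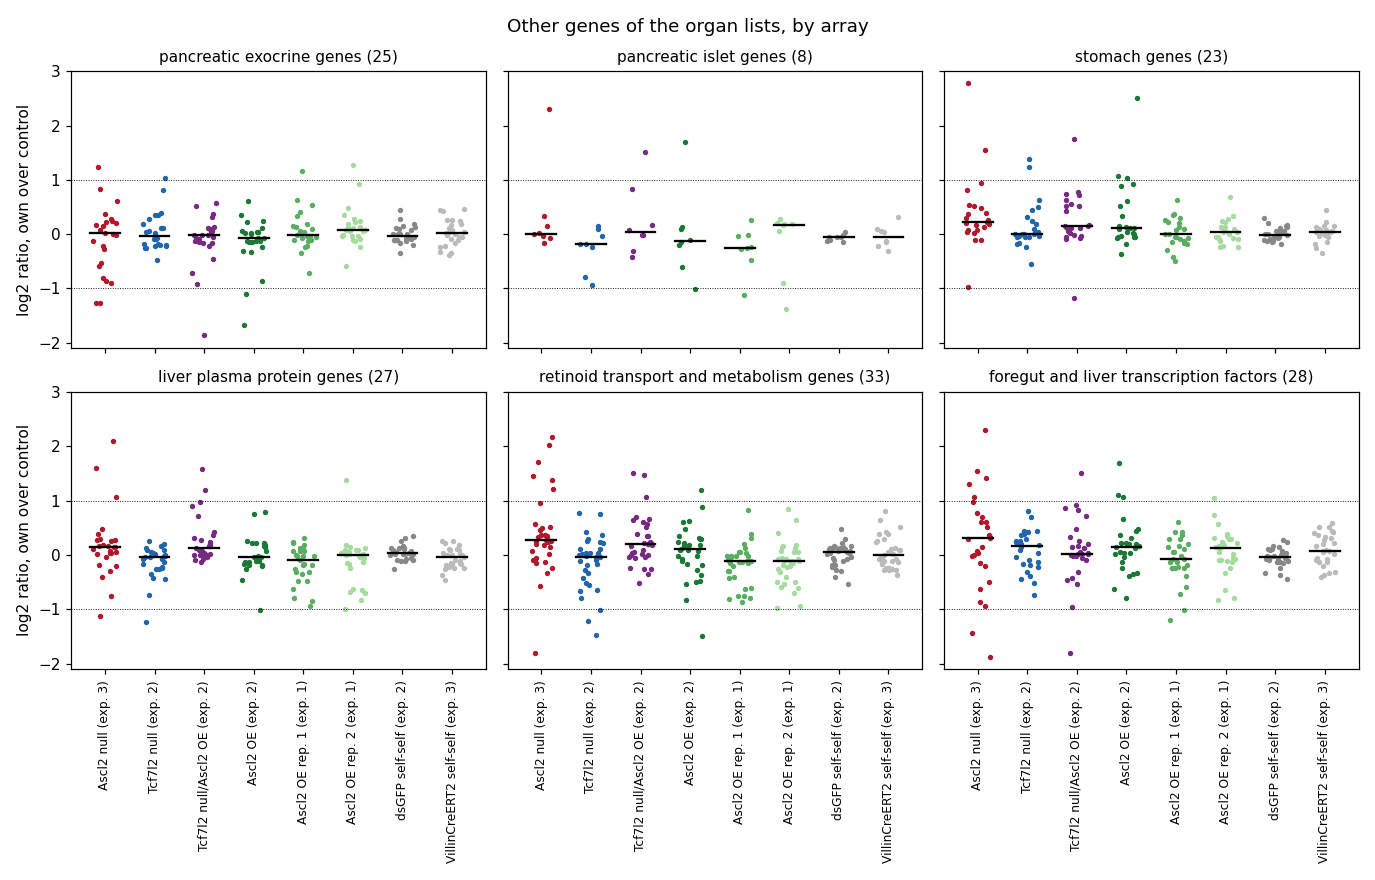
Log2 ratios (vertical axis) of the other genes of the 6 organ lists, 1 point per gene and array, with the number of genes in each panel's title, black bars at the medians and dotted lines at 2-fold; the grey columns are self-self arrays (Cy5 over Cy3). The widest scatter is on the Ascl2 null array, where 22 of 138 list genes pass 2-fold, and most points lie between the dotted lines.

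A limma model tested the Ascl2 OE effect shared by 3 arrays over 19058 genes. It called 5 genes higher and 5 lower at an adjusted p under 0.05 (0.0525% of genes), none of them in the 6 organ lists. At an unadjusted p under 0.05, 1070 genes were higher and 1231 lower. A second model tested the difference between experiments 2 and 1, with the single array of experiment 2 set against technical spread, and called 81 genes higher and 44 lower (0.656%). Experiment, slide and control genotype cannot be told apart in it, and with median centring limma called 0 genes, with 177 higher and 2647 lower at an unadjusted p under 0.05. The organ list genes called by the second model were Anxa10, which differed by 1.91 ± 0.26 (SE), Pdx1 by 1.87 ± 0.21 and Bhlha15 by -2.25 ± 0.20. The control signal of Pdx1 on the array of experiment 2 was not well above background, so the size of its difference is uncertain. Without replicate 1 of experiment 1 the second model called 13 genes in place of 125, and with high local backgrounds kept the first called none.

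Enteroendocrine markers are given beside these values because gut hormone cells are a known place of Rbp4, Ttr and Pdx1 expression. On the Ascl2 null array 13 of 26 markers were at least 2-fold higher (2.26% of all genes) and 4 lower, with Gcg (proglucagon) at 5.53, Chga (chromogranin A) at 1.84 and Neurog3, the factor of endocrine progenitors, at -2.39. On the Tcf7l2 null/Ascl2 OE array 8 were higher (1.25% of all genes) and 2 lower, with Gcg at 4.95, Chga at 0.17 and Neurog3 at -1.08. On the Ascl2 OE array of experiment 2, 7 were higher (1.05% of all genes) and 1 lower, with Gcg at 3.87, Chga at -0.37 and Neurog3 at -0.42. The Tcf7l2 null array had 1 higher (0.414% of all genes), Ghrl, with Gcg at 0.95, Chga at -0.64 and Neurog3 at 0.64. In experiment 1, 5 were lower on each replicate (0.46% and 0.571% of all genes) and none higher, with Gcg at -1.30 and -1.88. Chga had -0.80 and -0.37 there, while Neurog3 lay above 0 at 0.25 and 0.97. In limma's model of experiment 2 minus experiment 1 Gcg differed by 5.33 ± 0.26 (SE). That model has the limits given above: 1 array was set against technical spread, and its calls changed strongly with the processing. Afp and Rbp4 were thus above 0 on the arrays with the most endocrine markers higher and below 0 in experiment 1; the part of these cells in the values of Afp and Rbp4 was not tested.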

How the data were processed

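RNA of 8 organoid arrays was measured as spot intensities by Agilent Feature Extraction 10.5.1.1, per the file headers; median spot and local background intensities of both dyes were used. The deposited log10 ratio, Cy5 over Cy3, was background- and dye-corrected by the scanner software, per the file headers. The authors' deposited table holds log2 ratios whose array medians ran from -0.01 to 0.03. It matches the scanner ratios in experiments 2 and 3. In experiment 1 its replicate 2 is turned, and 8.66% and 8.40% of its values differ from the scanner by over 0.02, for a reason not given in the sources used here.

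Signals were corrected for background by normexp (offset 50) and the ratio of the dyes normalised by loess within arrays (R 4.3.3, limma 3.58.1; Python 3 for the rest). Spots with a local background over 10 times the array's median, 56 on replicate 2 of experiment 1 and 1 on the Tcf7l2 null array, were left out and their background set to the median before normexp. This was decided after seeing the data, when such backgrounds of up to 407956 were found to shrink the ratios of dim genes, and it raised the calls of both limma tests; results with them kept are given as an alternative. Outlier spots were left out, spots of a probe averaged, and 27621 of 41174 probes kept, with a channel well above background on at least 2 arrays. Each of 19338 genes was represented by its brightest probe, named by accession through GRCm38.p6 where possible and by the array's older annotation for 14145 probes. No spot was saturated, and 50.1% to 67.4% of spots were well above background per channel; the number of arrays limits the precision. Loess centres every array, so a change of most genes in one direction cannot be seen. Dye directions follow the labels. Over all genes the lowest correlation between arrays was -0.34, between replicate 2 of experiment 1 and Tcf7l2 null/Ascl2 OE.

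Limma models over all 8 arrays held a dye term and either 1 shared Ascl2 OE effect (3 residual degrees of freedom) or 1 per experiment (2), with two-sided p-values adjusted by Benjamini-Hochberg over all tested genes; they reflect the spread of these arrays alone, and that spread may be technical. In simulated data the shared fit called 49 of 50 genes changed by 0.5 on the log2 scale, with 4 false calls. The simulated noise was independent between arrays and had the same spread for every gene. The simulation therefore checks that the fit recovers known changes, and says nothing about its power on these arrays. The members and lists were chosen with earlier results of these data known. Named genes are the members, up to 3 highest and 3 lowest list genes past 2-fold per array, the 3 nearest genes per member, relatives, retinoid partners, targeted genes, and Chga, Neurog3 and Gcg.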

Additional observations from a re-analysis of the deposited data

Results flagged for a closer look

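Afp, Rbp4 and Ctrb1 had opposite signs in the organoids labelled Ascl2 OE of experiment 2 and in both replicates of experiment 1. The difference, experiment 2 minus the mean of experiment 1, was 2.80 on the log2 scale for Afp, 2.51 for Rbp4 and -0.25 for Ctrb1. These differences were not tested, and that of Ctrb1 is within its self-self values of 0.10 and 0.42.

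Limma's test of experiment 2 minus experiment 1 called Anxa10 (1.91), Pdx1 (1.87) and Bhlha15 (-2.25) among the organ list genes. Among the enteroendocrine markers it called Gcg (5.33), Gip (4.81), Sst (4.67), Cck (4.36), Scg5 (2.22), Nts (2.22), Pyy (1.52) and Pax4 (-1.66). The single array of experiment 2 was set against technical spread in this test, which called 0 genes with median centring (177 higher and 2647 lower at an unadjusted p under 0.05) and 13 without replicate 1 of experiment 1, and experiment, slide and control genotype cannot be told apart. The markers other than Gcg were named after their values were seen. For Pdx1 the control signal on the array of experiment 2 was not well above background, so the size of its difference is uncertain.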

How the results depend on the processing

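All 12 member ratios at or beyond 2-fold kept their sign in all 96 alternatives run on them, and 3 of the 96 fell under 2-fold: Afp on replicate 1 of experiment 1 (-0.99) and Rbp4 there (-0.67) with median centring, and Afp on Ascl2 OE of experiment 2 (0.66) less the dye term. Of all 236 values from alternatives for the 30 member ratios, 178 moved by less than 0.22, the self-self spread, as did 80 of 100 for the differences within experiment 2, and 191 of 288 counts of single lists stayed within 1.5 times. With median centring over all spots, medians of the kept genes ran from -0.08 to 0.32 between arrays, against -0.01 to 0.01 with loess.

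The count of members at or beyond 2-fold was 0 in place of 2 on replicate 1 of experiment 1 with median centring, 2 in place of 1 on replicate 2 at 1.5-fold, and 1 in place of 2 on Ascl2 OE of experiment 2 less the dye term. On Tcf7l2 null it was 3 in place of 1 with the scanner ratio, the authors' deposited table or 1.5-fold, and 2 less the dye term. Counts of organ list genes with the scanner ratio were 17 and 18 in experiment 1 (main 4 and 4), 24 on Tcf7l2 null (7), 32 on Tcf7l2 null/Ascl2 OE (10), 32 on Ascl2 OE of experiment 2 (11) and 41 on Ascl2 null (22). In the same order the authors' deposited table gave 17, 14, 17, 28, 25 and 41. Median centring gave 10 on replicate 1 of experiment 1 and 18 on Tcf7l2 null/Ascl2 OE. Less the dye term the counts were 4 on Tcf7l2 null and 6 on Ascl2 OE of experiment 2, where offset 10 gave 17 and the mean of all probes 7. High local backgrounds kept gave 2 on replicate 2 of experiment 1.

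The shared limma test called 10 genes, but 0 with median centring, the scanner ratio, the authors' deposited table, a dye term per slide or high local backgrounds kept. It called 993 with slide as a random block, and 0 to 122 when 1 array was left out: 0 without either replicate of experiment 1, and 122 without Ascl2 OE of experiment 2. Where it called 0, between 270 and 1848 genes were higher and between 290 and 1798 lower at an unadjusted p under 0.05. The test between experiments called 125 genes, 0 with median centring (177 higher and 2647 lower at an unadjusted p under 0.05), 199 with offset 10, 80 with high local backgrounds kept, and 13 to 125 without 1 replicate of experiment 1; a dye term per slide could not be fitted to it. The causes of these changes were not tested. Own and control RNA were paired on each array, and all ratios and both limma models used this pairing. No further pairing between groups was possible because the groups compared share fewer than 2 replicate numbers. For Ttr throughout, and for Nkx6-3 in experiment 2 and in the control RNA of experiment 3, signals near background limit what can be seen.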
